A study of Mus musculus with 5 samples.

Results

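The TAF genes of the library, apart from those of the RNA polymerase I factor, were followed through a pooled CRISPR growth screen in mouse embryonic stem (ES) cells. They were chosen by name: every guide whose gene name is TAF followed by a number, without Taf1a, Taf1b, Taf1c and Taf1d. This gave 110 of 17820 guides, 10 for each of 11 genes of 1682. Of the 13 TAF genes listed as subunits of TFIID, which leaves TBP aside, 8 were present: Taf4, Taf5, Taf6, Taf7, Taf10, Taf11, Taf12 and Taf13. The other 3 members were Taf5l, Taf4b and Taf15. Taf1, Taf2, Taf3, Taf8 and Taf9 are not analysed here.

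TFIID is the general factor that recognises the core promoter and starts assembly of the RNA polymerase II machinery, and it consists of the TATA-binding protein TBP and the TBP-associated factors, or TAFs. Many TAFs join as pairs through a histone fold, among them TAF4 with TAF12 and TAF11 with TAF13, while TAF5 carries WD40 repeats and TAF6 joins TAF9. TAF10 and TAF12 are also subunits of SAGA, a coactivator that acetylates histones, and TAF5L takes the place of TAF5 there. TAF4B is a form of TAF4 known from germ cells, and TAF15 is an RNA-binding protein of the FET family that is named for its association with TFIID.

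The libraries were 2 of the plasmid pool of guides (the labels call it a Maxiprep) and 1 each of transduced cells at days 5, 8 and 12, named for days after transduction in the titles. The protocol places the first sampling by days after selection instead, so the day numbers are names except in the trend over days. The genotype of all cells is labelled Ainv15(iNgn2 Tubb3::GFP); they received the guides by lentivirus and grew in Zeocin, which selects transduced cells, from then to the end. The treatment label reads "No treatment" for all 5 libraries, and no untransduced culture was used here. The plasmid libraries bear that label as well. Separate cultures are not named for the 3 days. With 1 library per time point, a value of a single day has no replicate culture behind it. Guide counts carry no marker of cell type, so the ES cell label was not checked. Losses at transduction, under selection and during growth cannot be told apart against the plasmid pool.

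Reads totalled 3541896 and 1350234 in plasmid libraries 1 and 2 and between 1008492 and 1082489 in the cell libraries. Guides with at least 30 reads in each plasmid library were kept, which left 100 of the 110 TAF guides, 7 to 10 per gene, and 893 non-targeting guides, designed to match no gene. Abundance is given as CPM, reads scaled to a common library size with TMM factors, and a change as the log2 ratio of CPM plus 1 to the plasmid mean plus 1. A gene's value is the median over its kept guides, with the SD over these guides, which share a target and are not replicates of the culture. The median non-targeting guide stood at 0.41 on day 5, 0.54 on day 8 and 0.58 on day 12 (SD 0.56, 0.59 and 0.70 over guides), above the median gene at 0.01 on each day. A TAF value of 0 therefore lies below the control guides, and no TAF gene exceeded their median on any of the 3 days. Between the plasmid libraries the TAF medians differed by -0.25 to 0.13, and none of the 1682 genes differed by 1 or more.

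Guides to Taf13, the gene with the lowest median at day 12, show what was sequenced. All 10 are printed 5′ to 3′, as RNA-coding DNA, with the 12 bases nearest the protospacer adjacent motif (PAM), the NGG next to which Cas9 cuts, in capitals. These bases are where pairing with the target matters most.
Taf13 guide 1: aaggtcttCGAGAATGTCCA
Taf13 guide 2: gaatccttACACGGAGTCCG
Taf13 guide 3: attggaggAGGAGCGGAAGG
Taf13 guide 4: cagtgatgAACTCTATGACA
Taf13 guide 5: ggacgaccAGAATCCTTACA
Taf13 guide 6: gaggagaaTGAAGAAATTGG
Taf13 guide 7: aaagtctcTTTCTCTTCCCC
Taf13 guide 8: atgtccacGGACTCCGTGTA
Taf13 guide 9: gagaatgaAGAAATTGGAGG
Taf13 guide 10: gaaattggAGGAGGAGCGGA

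For the other members the kept guides with the lowest and the highest change at day 12 are shown, lowest first, to give the span within each gene. Sequences of Taf7 and Taf4b guides are not shown.
Taf10 guide 2: caagtacaCCCTAACCATGG
Taf10 guide 8: tagtaaccAGTCACTGCATC
Taf5 guide 7: taagactaGATAACACTCGT
Taf5 guide 5: atgtatgaAGAATACTACAG
Taf11 guide 5: cttggactTCAACCTCCGGA
Taf11 guide 1: caggtcagCTTTCCCCAAGG
Taf12 guide 10: cagctgccTGCCAGCTTGCT
Taf12 guide 8: agtagatcCTAATGAGCAGC
Taf4 guide 1: tcacacggCAAAGAATCACG
Taf4 guide 10: ctcactgcACTGGCAGCGAT
Taf6 guide 7: ttaagacgCTAATTCTGCCA
Taf6 guide 10: tacaagctCAGCAGGTCAAC
Taf5l guide 4: acgcacggAGTTGTCCATGG
Taf5l guide 1: gagtggccCTAAGAGCACCG
Taf15 guide 7: tcttcgtaTGGACAAAACTA
Taf15 guide 9: tctggaagTTACAGTCAGTC

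The comparison of day 12 with the plasmid pool asks which TAF genes lost guides over transduction, selection and growth together. All 8 TFIID subunit genes had a median at or below -1, between -2.57 (Taf13, 16.8% of the plasmid level left) and -1.33 (Taf6, 39.9% left), while Taf5l (-0.84), Taf15 (-0.21) and Taf4b (0.17) did not. Thus 8 of the 11 genes were past that line. Over the whole library 15.8% of genes had a median at or below -1. The median over the 11 TAF genes was -1.48 and over the 8 TFIID genes -1.68. Against the non-targeting guides set to 0, the 8 TFIID genes lay between -3.15 and -1.91 and Taf5l at -1.42, so 9 TAF genes were then at or below -1, as were 26.8% of all genes.

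The trend over days was tested with edgeR's quasi-likelihood test on the reads summed per gene, with the plasmid libraries at day 0, all 5 libraries and Benjamini-Hochberg adjustment over 1682 genes. All 8 TFIID genes fell, and Taf5l, Taf15 and Taf4b did not pass the threshold of 0.05. The test also called 25.2% of all genes lower (424) and 584 genes higher, so a call alone is common here. Scaled to the non-targeting guides instead, it called 1084 genes lower and 19 higher, and with library totals 486 and 386. Its spread is that of the plasmid pair and of departures from a straight course in single cell libraries, and its p-values do not measure the spread between cultures.

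Among the TFIID genes, Taf13, which encodes the histone-fold partner of TAF11, had the lowest values. Its 7 kept guides summed to 463 and 400 CPM in the plasmid pool and to 141, 76.4 and 73.0 CPM at days 5, 8 and 12. The loss was thus present at day 5 and deepened by day 8, with little further change of the sum. The median change at day 12 was -2.57 (SD 1.48), or 16.8% of the plasmid level, with 7 of 7 guides at or below -1. The slope was -0.244 log2 units per day (SE 0.028; edgeR adjusted p = 0.000167). At day 12 the 7 guides had 67 reads in all, with an exact Poisson 95% interval of 51.9 to 85.1, which covers counting error only.

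Single Taf13 guides took different courses. Guide 3 went from 118 and 56 plasmid reads to 5 reads at day 5 and 0 at days 8 and 12, at least 11.6-fold lower at day 12 when 0 is taken as 3 reads. Guide 1 went from 170 and 46 reads to 15, 1 and 1. Guide 4 went from 451 and 151 reads to 34 and 2 reads and was back at 18 reads at day 12. Guide 7 levelled off early, with 276 and 89 plasmid reads and then 30, 37 and 33 reads. Thus guide 3 was lost, guide 1 nearly so, guide 4 had more reads at day 12 than at day 8, and guide 7 held at 49.9% of its plasmid level.

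Taf11 encodes the partner in that pair. Its 8 kept guides summed to 519 and 493 CPM in the plasmid libraries and to 311, 141 and 137 CPM at days 5, 8 and 12. The median change went from -0.62 to -1.64 to -1.54 (SD 1.51 at day 12, 8 of 8 guides below 0), or 34.3% of the plasmid level. Between days 5 and 8 the median guide changed by -0.99. With at least 100 reads in each plasmid library 3 guides were left, with a median of -3.23 at day 12. The slope was -0.173 per day (SE 0.021; edgeR adjusted p = 0.000223). Guide 5 ended at 4 reads from 386 and 146, while guide 6 kept 46 reads from 332 and 137.

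Taf10, a subunit of both TFIID and SAGA, had the second lowest median at day 12. Its 9 kept guides summed to 488 and 532 CPM in the plasmid libraries and to 279, 180 and 131 CPM at days 5, 8 and 12. The sum was lower at each later day, and the median change went from -0.82 to -1.14 to -2.10 (SD 1.14, 9 of 9 guides below 0), which leaves 23.4%. The slope was -0.170 per day (SE 0.015; edgeR adjusted p = 5.88e-05). Guides 2 and 8 mark the span: guide 2 fell from 335 and 135 reads to 7, while guide 8 had 177 and 84 plasmid reads and 44 at day 12, a change of -0.24.

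Taf12, also shared with SAGA and the histone-fold partner of TAF4, had 8 kept guides. They summed to 475 and 474 CPM in the plasmid libraries and to 260, 197 and 187 CPM at days 5, 8 and 12, so most of the loss of the sum was there at day 5. The median change at day 12 was -1.48 (SD 1.60, 7 of 8 guides below 0), or 35.9%. The slope was -0.124 per day (SE 0.017; edgeR adjusted p = 0.000478). Guide 10 went from 136 and 52 reads to 6, 2 and 0, at least 12.0-fold lower at day 12, while guide 8 went from 138 and 52 reads to 42, 49 and 39 and stayed at its plasmid level (0.11).

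Taf4, whose protein forms part of the TFIID core, had the largest read support, with 10 kept guides that summed to 915 and 933 CPM in the plasmid libraries. The cell libraries held 646, 566 and 492 CPM in time order. The median change at day 12 was -1.46 (SD 1.14, 9 of 10 guides below 0), or 36.3%. The slope of the sum, -0.079 per day (SE 0.008; edgeR adjusted p = 9.54e-05), was the shallowest of the 8 TFIID genes. Guide 10 alone held 193 of the 492 CPM at day 12, against 105 and 130 CPM in the plasmid pool, and was called higher by the edgeR trend on single guides (slope 0.068; adjusted p = 0.00779). The sum and the median guide thus give different sizes for this gene.

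Taf5 encodes the WD40 subunit of TFIID. Its 10 kept guides summed to 625 and 587 CPM in the plasmid libraries and to 266, 164 and 184 CPM at days 5, 8 and 12. The median change was -1.05, -2.11 and -2.02 (SD 1.73 at day 12, 9 of 10 guides below 0), which leaves 24.7%. The slope was -0.167 per day (SE 0.023; edgeR adjusted p = 0.000436). Guide 7 went from 101 and 48 reads to 4, 2 and 0, at least 9.95-fold lower at day 12. Guide 5 went the other way late, from 11 reads at day 8 to 41 at day 12, a change of 1.99 in that interval, and ended at its plasmid level (0.14).

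Taf6, which encodes a histone-fold subunit of the core, differed from the plasmid pool by day 5 and moved less after that. Its 10 kept guides summed to 421 and 451 CPM in the plasmid libraries and to 258, 210 and 178 CPM at days 5, 8 and 12. The median change was -0.77, -0.94 and -1.33 (SD 1.07 at day 12, 9 of 10 guides below 0), or 39.9% at the end. The slope was -0.115 per day (SE 0.016; edgeR adjusted p = 0.000437). Guide 7 fell from 103 and 40 reads to 2 at day 5, 0 at day 8 and 1 at day 12, whereas guide 10 had 118 and 51 plasmid reads and 34 at day 12 (0.04).

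Taf7 encodes a subunit that binds TAF1. Its 10 kept guides summed to 459 and 448 CPM in the plasmid libraries and to 279, 193 and 220 CPM at days 5, 8 and 12. The median change was -0.68, -1.52 and -1.82 (SD 1.97 at day 12, 9 of 10 guides below 0), or 28.2%. The slope was -0.103 per day (SE 0.019; edgeR adjusted p = 0.00201). This gene had the widest spread between guides of all 11: guide 3 went from 124 and 62 reads to 0, at least 12.6-fold lower, and guide 2 from 126 and 49 plasmid reads to 49, 64 and 84, a change of 1.30. The sum was higher at day 12 than at day 8 while the median was lower, and guide 2 held 91.6 of the 220 CPM at day 12.

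From lowest to highest, the TFIID medians at day 12 ran Taf13, Taf10, Taf5, Taf7, Taf11, Taf12, Taf4 and Taf6. Each step between neighbours was smaller than the SD over guides of either gene, and no test of the order was made. With at least 100 plasmid reads per guide, Taf10 (-3.44, 2 guides) lay below Taf13 (-3.37, 2 guides), so the order depends on that filter. Of the 72 kept TFIID guides 67 lay below 0, 52 at or below -1 and 28 at or below -2 at day 12. At or below -1 were 21.5% of all guides to genes, 3107 of 14443, and 3.36% of the non-targeting guides. Below the 5th percentile of the non-targeting guides (-0.81) lay 56 of the 72, and 18 lay below the lowest non-targeting guide (-2.67). These 2 lines are set by the non-targeting guides themselves. The shares of all guides to genes past them, and at or below -2, are not given here, so these counts have no library background. In the edgeR trend on single guides, 55 of the 72 fell and 2 rose, against 24.0% of all guides to genes that fell.

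Taf5l encodes the SAGA form of TAF5. Its 9 kept guides summed to 559 and 511 CPM in the plasmid libraries and to 575, 456 and 512 CPM at days 5, 8 and 12, so the sums of cells and plasmid overlapped. The median guide stood at 0.26, -0.30 and -0.84 (SD 1.23 at day 12, 6 of 9 guides below 0). The slope was -0.010 per day (SE 0.011; edgeR adjusted p = 0.433), and scaled to the non-targeting guides it passed as a fall, at -0.065 (edgeR adjusted p = 0.005). The difference between Taf5l and Taf5 was not tested.

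Single Taf5l guides ran from -2.71 to 1.32 at day 12. Guide 4 went from 146 and 54 plasmid reads to 40, 14 and 5 reads and was called lower by the edgeR trend on single guides (adjusted p = 0.00229). Guide 1 went from 185 and 71 reads to 98, 112 and 123 and was called higher (edgeR adjusted p = 0.00059). In all, 3 guides were called lower, 1 higher and 5 neither. Over the library 3463 of 14443 guides to genes (24.0%) were called lower and 2324 higher, so these counts are near the background. The direction of the gene depends on which guides are read: with at least 100 reads in each plasmid library 1 guide was left, at 0.25.

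Taf4b, the germ-cell form, had higher summed CPM in the cells than in the plasmid pool. Its 10 kept guides summed to 750 and 719 CPM in the plasmid libraries and to 805, 787 and 871 CPM at days 5, 8 and 12, and all 3 cell libraries lay above both plasmid libraries. Its median change ran 0.09, 0.14 and 0.17 (SD 0.58 at day 12, 3 of 10 guides below 0), which is below the non-targeting guides, and with these set to 0 it was -0.41. The slope was 0.019 per day (SE 0.008; edgeR adjusted p = 0.063). It passed the threshold as a rise in 4 alternatives and as a fall, at -0.036 (edgeR adjusted p = 0.0216), when libraries were scaled to the non-targeting guides. The sign for this gene is thus that of the scaling. Its paralog Taf4 fell in every one of those alternatives.

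Taf15 was likewise near its plasmid level. Its 9 kept guides summed to 476 and 491 CPM in the plasmid libraries and to 448, 455 and 473 CPM at days 5, 8 and 12, so all 3 cell libraries lay below both plasmid libraries, by little. The median at day 12 was -0.21 (SD 0.73, 6 of 9 guides below 0) and the slope -0.005 per day (SE 0.009; edgeR adjusted p = 0.683). The kept Taf15 guides hold a median of 8 G or C bases of 20, against 11 for all guides to genes, and non-targeting guides changed by 0.125 log2 units more for each further G or C. With that slope removed and the level kept, a setting chosen after seeing the data, the Taf15 median was 0.16. The planned GC correction subtracted the whole line of the non-targeting guides, their level included, and gave -0.31. Without GC correction the median was 0.05 over the 3 guides that had 100 plasmid reads or more. Scaled to the non-targeting guides the Taf15 trend passed as a fall, at -0.060 (edgeR adjusted p = 0.00781). With the slope alone removed no other member's median changed sign. Minus the whole line Taf15 stayed negative and the Taf4b median turned to -0.28.

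The earlier days ask when the guides were lost. At day 5 the TFIID medians lay between -1.47 (Taf13) and -0.62 (Taf11), and 2 of the 8, Taf13 and Taf5, were at or below -1, where 6.30% of all genes were. That count ran from 1 to 8 over the alternatives. At day 8 they lay between -2.44 and -0.94 and 7 of 8 were at or below -1, all but Taf6, against 12.1% of all genes. None of Taf5l, Taf4b and Taf15 was at or below -1 on either day. The comparison of day 12 with day 5, which leaves the plasmid libraries out, had 3 TAF genes at or below -1, Taf13 (-1.58), Taf5 (-1.10) and Taf7 (-1.06), against 7.02% of all genes. Taf11 (-0.99) and Taf10 (-0.93) lay just short of that line, and the count ran from 0 to 5 over the alternatives.

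Between days 8 and 12 the median guide of each TFIID gene changed by -0.41 (Taf10) to 0.00 (Taf13), and the median non-targeting guide by 0.05. The medians against plasmid can differ more between these days: that of Taf10 was -1.14 and then -2.10. Those of Taf11 (-1.64 and -1.54) and Taf5 (-2.11 and -2.02) were slightly higher at day 12. Of the 52 TFIID guides that were at or below -1 at day 8, 10 were lower by a further log2 unit or more at day 12 and 3 were higher by as much: Taf13 guide 4, Taf5 guide 5 and Taf6 guide 7. Taf6 guide 7 had 0 and 1 reads on these days, so its difference rests on 1 read. Among all 893 kept non-targeting guides 0.56% were lower by 1 log2 unit or more over this interval. Those guides were not picked by a day 8 value, so that share is not a like background for the 10. The share over all guides to genes is not given here. The 52 guides were picked by their day 8 value, which is also the reference of the change, so some rises can come from that choice. Their median change over the interval was -0.31. With days 5, 8 and 12 alone, the edgeR trend called 3 of the 11 genes lower, Taf4, Taf10 and Taf11, and 11.8% of all genes. Its adjusted p was 0.164 for Taf13 and 0.201 to 0.436 for Taf12, Taf5, Taf6 and Taf7.

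Many guides of a TAF gene overlap on the genome, so they are not independent looks at it. Within genes 30 pairs of guides shared at least 10 bases in register, on the same strand (17 pairs) or opposite strands (13 pairs), and 49 of the 110 guides were in such a pair. The overlaps also show the orientation of the printed sequences. Where 1 guide covered all 3 bases after the other's end, that triplet read NGG in 29 of 29 cases. None of the 110 guides matched the RefSeq promoter windows of the member genes (250 bases before to 50 after the start site, GRCm38.p6; 9 of the 11 genes had one).

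Guides with nearly the same cut site could still end far apart. For 6 pairs of kept TFIID guides the expected cuts, 3 bases before the PAM, lay at most 6 bases apart, a limit chosen after the values were seen. They are printed with the shared bases in capitals.
Taf10 guide 1: ctgaagCTTCAAAGCCAGCG
Taf10 guide 9: CTTCAAAGCCAGCGcggttc
Taf10 guide 2: CAAGTACACCCTAACCAtgg
Taf10 guide 3: tcgCAAGTACACCCTAACCA
Taf11 guide 1: CAGGTCAGCTTTCCCCAagg
Taf11 guide 2: tcgCAGGTCAGCTTTCCCCA
Taf11 guide 5: CTTGGACTTCAACCTCcgga
Taf11 guide 9: gcccCTTGGACTTCAACCTC
Taf12 guide 5: gcggtgccgAGCAAGCTGGC
Taf12 guide 10: cagctgcctGCCAGCTTGCT
Taf13 guide 3: ATTGGAGGAGGAGCGGAagg
Taf13 guide 10: gaaATTGGAGGAGGAGCGGA

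In the Taf10, Taf11 and Taf13 pairs both guides lie on the same strand and in the Taf12 pair on opposite strands. Taf11 guide 2, whose cut lies 3 bases from that of guide 1, went from 344 and 116 plasmid reads to 33, 10 and 9 reads, a change of -3.12 at day 12, whereas guide 1 went from 149 and 39 reads to 30, 18 and 26, a change of -0.34. Taf10 guide 1 (-3.06) and guide 9 (-0.72) have cuts 6 bases apart. The 6 pairs differed by 1.44 to 3.55, with a median of 2.84. Kept Taf15 pairs within the same limit, which are not among the 6, differed less on the whole. The first guide minus the second was -1.08 (guides 1 and 9), 1.57 (guides 4 and 7) and -0.39 (guides 6 and 10). All 17 overlapping pairs of kept TFIID guides had a median difference of 1.87. The 276 pairs without overlap within TFIID genes had 1.36, and these include Taf5, which has no overlapping pair. The 17 include the 6, whose limit followed the values, so these medians do not test whether closer cuts differ more. Just past the limit, pairs in Taf11 and Taf6 with cuts 8 or 9 bases apart differed by 0.79, 0.79 and 1.14. Each difference comes from 1 library of day 12 and the plasmid pair, and guide activity, counting error and the cut itself cannot be told apart here.

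The widest difference in an overlapping pair was in Taf11, where guide 5 and guide 8 share 18 bases on opposite strands with cuts 12 bases apart.
Taf11 guide 5: ctTGGACTTCAACCTCCGGA
Taf11 guide 8: cgTCCGGAGGTTGAAGTCCA
Guide 5 changed by -4.38 and guide 8, with 129 and 31 plasmid reads and 37, 23 and 17 in the cells, by -0.68, a difference of 3.70. In Taf4 a like pair, also sharing 18 bases with cuts 12 bases apart, holds the guide that was called higher.
Taf4 guide 2: cgATCGCTGCCAGTGCAGTG
Taf4 guide 10: ctCACTGCACTGGCAGCGAT
Guide 2 went from 183 and 92 reads to 56, 24 and 18 (-1.58), and guide 10 from 363 and 173 reads to 165, 199 and 177 (0.71).

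The 10 guides under the read filter were Taf13 guides 2, 8 and 9, Taf11 guides 4 and 7, Taf12 guides 3 and 4, Taf10 guide 10, Taf15 guide 3 and Taf5l guide 3. Of these, 2 had more reads at day 12 than at day 8 by a wide margin. Taf13 guide 9 had 99 and 28 plasmid reads and 9, 11 and 32 in the cells. Taf11 guide 7, rare in the plasmid pool with 10 and 6 reads, had 2, 1 and 22. With all 10 included, the same number of TAF genes, 8, lay at or below -1 at day 12.

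The partners of these proteins were read from lists of TFIID, SAGA and initiation factors matched by symbol. Guides to Tbp, the DNA-binding subunit of TFIID, had a median of -1.24 at day 12 (SD 0.75, 8 of 8 guides below 0) and fell in the edgeR trend (slope -0.130; adjusted p = 0.00157). The TBP relative Tbpl1 (-1.24) and the TBP-releasing ATPase gene Btaf1 (-0.48) fell too, 3 of the 3 analysed from that list of 4. The list of other initiation factors has 19 genes, and those beyond 15 are not analysed here. All 15 fell, and 13 had medians at or below -1. Gtf2e2 of TFIIE was lowest at -3.72, followed by Gtf2f2 of TFIIF (-3.01), the TFIIH genes Gtf2h3 (-2.54), Ercc3 (-2.38), Ercc2 (-2.28), Gtf2h1 (-2.04), Gtf2h2 (-2.00) and Gtf2h4 (-1.69), and Gtf2b (-2.50), Gtf2a2 (-1.99) and Gtf2a1 (-1.92). Gtf2e1 (-1.04) and the NC2 gene Dr1 (-1.67) were also below -1, and Gtf2f1 (-0.96) and Drap1 (-0.52), the other NC2 gene, were not. The list had a median of -2.00, below the -1.68 of the TFIID genes, and no test of that difference was made. Over the library 25.2% of genes fell in the trend and 15.8% had medians at or below -1 at day 12. With days 5, 8 and 12 alone, 8 of the 15 initiation factor genes fell, and 1 of the 3 genes of the TBP list. Of all genes 11.8% fell in that setting.

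Among 9 genes of SAGA and the related acetyltransferase complex ATAC, 6 fell in the edgeR trend, 2 rose and 1 did not pass. Of all 1682 genes 424 fell and 584 rose. The list has 21 genes, and those beyond the 9 are not analysed here. Those that fell were Zzz3 (-1.82), Tada2a (-1.72), Supt3 (-1.71), Dr1 (-1.67), Yeats2 (-0.97) and Tada3 (-0.92). Supt3 encodes a SAGA subunit, and the products of Zzz3, Yeats2 and Tada2a belong to ATAC. Kat2b, which encodes an acetyltransferase of both complexes (0.43), and Trrap, which encodes the large scaffold protein of SAGA (-0.07), passed as rises (slopes 0.048 and 0.033; edgeR adjusted p = 0.000693 and 0.0413). Their slopes turned to -0.007 and -0.021 when scaled to the non-targeting guides, and neither then passed (edgeR adjusted p = 0.555 and 0.171). With library totals Trrap did not pass either (edgeR adjusted p = 0.106). Of its 9 kept guides 5 lay below 0 at day 12 (SD 1.09), so its rise was in the summed reads and not in the median guide. Supt7l (-0.20), which encodes a histone-fold subunit of SAGA, did not pass (slope -0.021; edgeR adjusted p = 0.166), but fell when scaled to the non-targeting guides (slope -0.076; edgeR adjusted p = 0.00405). Dr1 stands in both lists. Of the 4 listed TAF genes of the RNA polymerase I factor SL1, left out of the members, 2 were analysed. Both fell as well: Taf1b (-2.28) and Taf1c (-1.25). With days 5, 8 and 12 alone 1 of these 2 fell, and of the 9 SAGA and ATAC genes 3 fell and 1 rose.

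On GRCm38.p6, the mm10 assembly, RefSeq places Taf4 at 179912146 to 179976646 on chromosome 2, Taf13 at 108571699 to 108582068 on chromosome 3, Taf12 at 132274355 to 132293329 on chromosome 4 and Taf6 at 138178617 to 138187451 on chromosome 5. Taf10 lies at 105742894 to 105744375 on chromosome 7, Taf5l at 123996310 to 124021397 on chromosome 8, Taf15 at 83473073 to 83506743 on chromosome 11 and Taf11 at 27901122 to 27909343 on chromosome 17. Taf4b lies at 14783201 to 14960424 and Taf7 at 37640491 to 37644204 on chromosome 18, and Taf5 at 47067748 to 47083479 on chromosome 19. The exon or intron each guide targets was not analysed here.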

How the data were processed

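The deposited tables give whole-number counts of reads for each guide, as the values show. The submitters' processing notes list cutadapt, Bowtie and featureCounts and the build mm10, with no version. What the guide reads were matched to is not given in the sources used here. Members, lists and tests were chosen with earlier results of these data known. Every member is named, and of the partner lists the lowest, the highest and the genes past the trend threshold; Supt7l was named after its values were seen. Guides are printed for the lowest and highest change of each member but Taf7 and Taf4b and for the member with the lowest median; the overlapping pairs were chosen after their values were seen.

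A guide needed 30 reads or more in each plasmid library. TMM factors and the quasi-likelihood trend came from edgeR 4.0.16 (R 4.3.3), fitted on gene sums and on single guides with 3 residual degrees of freedom and adjusted by Benjamini-Hochberg over all genes or all guides. Medians used a pseudocount of 1 and have no test. Alternatives changed the pseudocount, filter, scaling, GC correction, tool (DESeq2 1.42.0) and libraries. All 11 symbols matched RefSeq. Placing guides in proteins was planned and is not analysed here.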

Additional observations from a re-analysis of the deposited data

How the results depend on the processing

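The count of 8 TAF genes at or below -1 at day 12 ran from 7 to 9 over 12 alternatives and that of day 8, 7 genes, from 6 to 8. With at least 100 plasmid reads Taf7 had no guide left and 10 genes were tested. The count of 2 at day 5 was 1 with a pseudocount of 5, 5 with at least 100 reads (9.29% of all genes), 8 centred on the non-targeting guides (13.1%), 5 minus their GC line (9.45%) and 1 with the GC slope alone, which was chosen after seeing the data. The count of 3 for day 12 against day 5 was 0 with a pseudocount of 5, where 3.45% of all genes were at or below -1. It was 5 with at least 100 reads, library totals, non-targeting centring, the mean over guides or the GC line, where 8.09% to 10.3% were. The TAF median at day 12 (-1.48) was -1.35 with a pseudocount of 5, -1.67 with at least 100 reads, -1.59 with library totals, -2.06 centred on the non-targeting guides, -1.72 as a mean over guides and -1.91 minus the GC line. At day 5 (-0.76) it was -0.97 with at least 100 reads, -1.17 with that centring and -0.95 minus the GC line. Centring on the non-targeting guides moved the median of all genes at day 12 from 0.01 to -0.57 and put 26.8% of genes at or below -1, and library totals moved it to -0.10. In the trend over days 8 genes and 60 guides were lower, against 25.2% of all genes and 24.0% of all guides to genes. With days 5, 8 and 12 alone, which leaves 3 libraries, 3 genes and 9 guides were, against 11.8% of genes and 552 of 14443 guides. With at least 100 reads, which leaves 22 TAF guides, 14 guides were, against 1128 of 4226. Scaled to the non-targeting guides all 11 genes were lower, as were 64.4% of all genes, and the slope of Taf4b turned to -0.036. Leaving out either plasmid library or any single day kept 8 genes lower, with 46 to 64 guides. Over the library 19.4% to 26.3% of genes and 2183 to 3879 of 14443 guides to genes were then lower. The cause of these shifts was not tested beyond what each setting leaves out. No paired analysis was possible because only the plasmid group has more than 1 library. Read depth limits guides that ended at a few reads, whose log2 change depends on the pseudocount.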
